A study of Mus musculus with 8 samples.

Results

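Ischemic stroke was compared with sham surgery in the brains of DEREG mice, on 1 single-colour microarray of each group out of the 8 samples of the series. The groups used were DEREG ischemia, brain tissue taken at day 14 after stroke onset, and DEREG sham, tissue of the same genotype taken at day 14 after the sham operation. WT ischemia and WT sham, the matching tissue of wild type mice with 1 array each, served as a second stroke comparison that shares no array with the first. DEREG mice carry a transgene driven by Foxp3, the defining transcription factor of regulatory T cells (Treg), that encodes the diphtheria toxin receptor, so that Treg can be killed with the toxin. The transgene was present in both DEREG groups, and whether the mice received toxin is not stated in the sources used here. RNA was extracted with QIAzol from 1 brain slice on the ischemic side. How many animals each library holds, whether they were pooled, their age and how the stroke was made are not given in the sources used here. The remaining 4 samples are sorted CD4 T cells and were not used here.

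The comparison rests on all probes that were well above background, by the scanner software's own call, on at least 1 of the 2 DEREG arrays. This kept 39226 of 56605 non-control probes, 33764 of them well above background on both arrays. At the edge of this rule, the lowest brighter signal of a kept probe was 10.7 and the highest of a dropped probe was 14.8. Kept probes covered 17161 of the 22911 genes that had a named probe. Signals below are processed intensities in arbitrary units, and folds and log2 differences were taken after dividing each array by its own 75th percentile of 413.6 (DEREG ischemia) or 439.4 (DEREG sham). A difference is DEREG ischemia minus DEREG sham on the log2 scale. Where the dimmer array had no signal well above background for a probe, its fold is a lower bound, written "at least". Such a bound was taken against the lowest signal that passed the call on that array, or against the signal of the dim probe itself where that was higher. With 1 array per group no difference can be tested, no value below has an error between animals, and a gene is called higher or lower only for reaching 2-fold. The noise between repeat spots of a probe on the same array, for spots well above background, gives a difference an error of 0.0638 (log2). It leaves out error from labelling and hybridization between arrays and error of dim probes. As a second measure of scatter, the libraries DEREG sham and WT sham, which differ in genotype and in animals, had an SD of 0.20 across 15120 genes measured on all 4 tissue arrays, and 55 of these genes were at least 2-fold apart.

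Ischemic stroke kills neurons in the core of the lesion, and over the following weeks the dead tissue is cleared by resident microglia and by macrophages that enter from the blood. Astrocytes around the lesion become reactive and form a border, fibroblasts of the vessels and meninges lay down collagen inside it, and lymphocytes arrive late. Treg are among these late lymphocytes and are known to restrain inflammation and astrocyte reactivity in the stroke brain of mice.

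Stroke tissue of DEREG mice held far more RNA of phagocytes, of the interferon response, of scar matrix and of dividing cells than sham tissue, and less RNA of forebrain neurons. Myelin genes differed little. In tissue RNA, a change in the number of cells of a type and a change in the RNA of each cell cannot be told apart. Of the 17161 genes, 3837 (22.4%) were at least 2-fold higher in DEREG ischemia and 3799 (22.1%) at least 2-fold lower, with a median difference over all genes of -0.06. The numbers were alike at 2-fold but parted at larger sizes: 634 genes were higher by 16-fold or more and 67 lower by as much, and 56 were higher by 128-fold or more and none lower. Genes that were higher had been dim in sham brain, with a median level of -1.93 relative to the 75th percentile in DEREG sham (0.86 in DEREG ischemia). Genes that were lower had been bright there, with a median level of -0.75 in DEREG ischemia and 1.30 in DEREG sham. The DEREG sham level is itself a term of the difference that sorted these genes, so part of this contrast is built in. Of the genes that were higher, 721 were not well above background in DEREG sham and were kept only through DEREG ischemia.

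Several genes known from phagocytes were among the 15 highest measured differences. Gpnmb, a glycoprotein of lysosome-rich phagocytes, had a signal of 24389 in DEREG ischemia and 18.4 in DEREG sham, a difference of 1408-fold. Lgals3, which encodes the phagocyte lectin galectin-3, had 60192 in DEREG ischemia and 81.5 in DEREG sham, 785-fold. Spp1, encoding the secreted matrix protein osteopontin, had 129231 in DEREG ischemia and 450.4 in DEREG sham, 305-fold. These 3 genes were thus close to the floor or of moderate signal in sham tissue and bright in stroke tissue. Apoc2, an apolipoprotein that activates lipoprotein lipase, was 827-fold higher, Cst7, the cysteine protease inhibitor cystatin F, 467-fold, and the lysozyme genes Lyz2 and Lyz1 486-fold and 308-fold. Lilrb4a, an inhibitory receptor of myeloid cells, was 470.0-fold higher and Chil3, a chitinase-like protein of mouse macrophages, 292-fold. Acute-phase and complement genes stood there too: Saa3, serum amyloid A3, had 42234 in DEREG ischemia and 35.9 in DEREG sham (1251-fold), Hp, haptoglobin, was 364-fold and C3, the central complement component, 339-fold higher (log2 difference of 7.17 on its second probe). Ifi204, an interferon-induced gene, was 367-fold higher, and the chemokine genes Ccl2 and Ccl8, whose products attract monocytes, were 318-fold and 248-fold higher. With normexp, another background correction, these 15 folds were smaller, between 56.7 (Lyz1) and 430.1 (Saa3), with 322 for Gpnmb, 221 for Apoc2, 416 for Lgals3, 159 for Lyz2 and 93.4 for Chil3. Saa3 then had the highest fold. The largest bounds belonged to Cd5l, a scavenger protein secreted by macrophages, at least 813-fold higher, the matrix protease gene Mmp3 at least 758-fold, the IgG receptor gene Fcgr4 at least 631-fold, the C-type lectin gene Clec4d at least 355-fold, the lysosomal channel gene Mcoln2 at least 349-fold, and Zbp1, a sensor of nucleic acids, at least 346-fold.

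**Figure D1:**
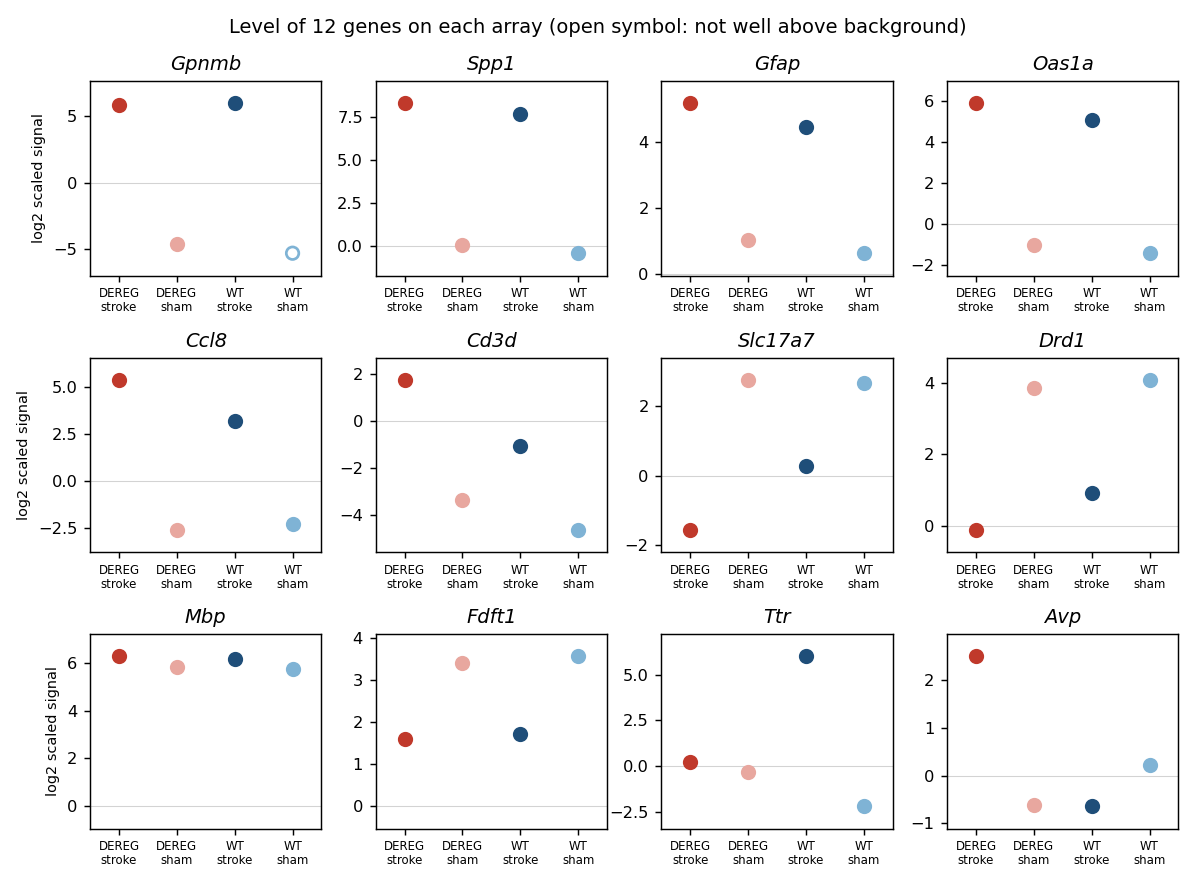
Level of 12 genes on each of the 4 tissue arrays, as log2 signal relative to the array's 75th percentile (y axis, with its own range in each panel), for DEREG stroke, DEREG sham, WT stroke and WT sham, 1 array each, so that there are no error bars. Gpnmb, Spp1, Gfap, Oas1a, Ccl8 and Cd3d are higher in DEREG stroke than in DEREG sham, Slc17a7, Drd1 and Fdft1 are lower, and Ttr and Avp are the genes with the most different stroke differences in DEREG and WT brain.

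Of the 18 genes on a list of disease-associated phagocyte genes, 17 had a probe and all 17 were higher, with a median of 5.30. This list includes Gpnmb, Lgals3, Lilrb4a, Cst7 and Spp1 from above. Igf1, insulin-like growth factor 1, had 15609 in DEREG ischemia and 109 in DEREG sham (153-fold), and Itgax, the integrin CD11c, 3630.4 in DEREG ischemia and 35.1 in DEREG sham (109.9-fold), although its second probe gave a bound of 1.75. Trem2, a lipid-sensing receptor of microglia that drives this state, had 85810.1 in DEREG ischemia and 2924 in DEREG sham (31.2-fold). Its adaptor gene Tyrobp was at 5.30, and Apoe, already at a signal of 138216 in DEREG sham, reached 269350.0 in DEREG ischemia, a difference of only 1.05.

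Microglia markers were higher as well, by less. Of 12 genes of homeostatic microglia, 11 were at least 2-fold higher and none lower, with a median of 2.92 and a summed level of 738 in DEREG ischemia and 151 in DEREG sham (in units of the 75th percentile). Cx3cr1, the fractalkine receptor, had 45294 in DEREG ischemia and 5363 in DEREG sham (8.97-fold), Tmem119 7892 in DEREG ischemia and 1108 in DEREG sham (7.57-fold), and the purine receptor gene P2ry12 549.9 in DEREG ischemia and 191 in DEREG sham (3.05-fold). Fcrls was 31.3-fold, Csf1r, the receptor for colony stimulating factor 1, 9.22-fold and Gpr34 8.10-fold higher. Aif1, whose product Iba1 stains microglia and macrophages, had 32553 in DEREG ischemia and 1289 in DEREG sham, 26.8-fold, and Ptprc, the pan-leukocyte antigen CD45, 48.6-fold. Among the named genes of the list the difference thus ran between that of P2ry12 and that of Fcrls. Itgam, the integrin CD11b, gave opposite answers: the brighter probe was 2.22-fold lower (7689 in DEREG ischemia and 18099 in DEREG sham), while the second probe was at 2.91, so no direction is given for this gene.

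All 12 macrophage and monocyte genes were higher, 5 of them as bounds, with a median of 3.49 and a summed level of 166 in DEREG ischemia and 27.8 in DEREG sham. Ms4a7, a marker of macrophages over resting microglia, had 16809 in DEREG ischemia and 80.9 in DEREG sham, 221-fold, and Ms4a6c was at least 219-fold higher. Arg1, arginase 1, had 812 in DEREG ischemia and was not well above background in DEREG sham, at least 78.8-fold. Adgre1 (F4/80) was 35.4-fold, the coagulation factor gene F13a1 15.4-fold and the mannose receptor gene Mrc1 11.2-fold higher. Lysosomal genes went the same way without exception, 16 of 16 higher with a median of 3.86. Cd68, a lysosomal glycoprotein of phagocytes, had 67415 in DEREG ischemia and 1607 in DEREG sham (44.6-fold), Laptm5 was 43.0-fold, beta-glucuronidase (Gusb) 32.5-fold, progranulin (Grn) 29.5-fold (log2 difference of 3.60 on its second probe), and the cathepsin genes Ctsz and Ctss 25.1-fold and 21.8-fold higher. Of 13 genes of lipid uptake and efflux all were higher, with a median of 3.52. Plin2, the coat protein of lipid droplets, had 15095 in DEREG ischemia and 302 in DEREG sham (53.1-fold, with a log2 difference of 3.83 on its second probe), the scavenger receptor genes Msr1 and Cd36 were at least 52.8-fold and at least 23.3-fold higher, Abca1, which exports cholesterol, 20.9-fold, Ch25h, which makes 25-hydroxycholesterol, 15-fold, and Npc2, which moves cholesterol out of lysosomes, 13.7-fold.

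Cholesterol synthesis genes were lower in the same tissue. Of 16 genes, 9 were at least 2-fold lower and none higher, with a median of -1.10, beside a median of -0.06 for all genes. Fdft1, which encodes the enzyme that commits farnesyl units to sterols, had 1243 in DEREG ischemia and 4675 in DEREG sham, 3.54-fold lower. Sqle, squalene epoxidase, was 3.12-fold lower, Idi1 2.96-fold, Fdps 2.57-fold and Lss, lanosterol synthase, 2.42-fold. The other 2 Lss probes gave differences of -0.64 and -0.39.

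Innate humoral and antigen-presentation genes were higher nearly throughout. Of 14 complement genes 13 were higher, with a median of 5.09, and the exception was the disputed Itgam probe. The 3 genes of C1q, the molecule that starts the classical pathway and is made in brain by microglia, had near-equal differences of 5.01 (C1qa), 4.99 (C1qb) and 5.18 (C1qc). Cfb, factor B of the alternative pathway, had 2632 in DEREG ischemia and 37.9 in DEREG sham (73.7-fold), the receptor genes C3ar1 and C5ar1 were 72.4-fold and at least 48.1-fold higher, Itgb2, the beta chain of complement receptor 3, 44.2-fold, and Serping1, the C1 inhibitor, 36.4-fold. All 10 genes of MHC class II and costimulation were higher, with a median of 5.39. H2-Ab1 had 17734 in DEREG ischemia and 276 in DEREG sham (68.3-fold), H2-Aa was 61.2-fold, H2-Eb1 45.1-fold and the invariant chain gene Cd74 53.0-fold higher. Ciita, the class II transactivator, had 912 in DEREG ischemia and 20.5 in DEREG sham (47.4-fold), and the costimulatory ligand gene Cd86 was 39.1-fold higher. MHC class I genes were higher in 9 of 9 cases, with a median of 4.69: H2-K1 was 27.4-fold, H2-D1 25.8-fold and B2m 17.5-fold higher, the peptide transporter gene Tap1 32.8-fold, the immunoproteasome genes Psmb8 and Psmb9 33.5-fold and 24.7-fold, and the class I transactivator gene Nlrc5 50.5-fold. B2m is often used as a control gene and was not level here.

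Interferon-stimulated genes are switched on by type I and type II interferons through STAT and IRF factors, whose binding sites in promoters include the interferon-stimulated response element. On the list of these genes, 16 of the 17 had a probe, and all 16 were higher with a median of 5.29. Ifi27l2a had 57434 in DEREG ischemia and 434 in DEREG sham (140.5-fold), although its second probe gave a bound of 2.56. Oas1a, which makes the 2-5A messenger of antiviral defence, had 24009.6 in DEREG ischemia and 215 in DEREG sham, 119-fold. Irf7, the transcription factor that amplifies type I interferon, had 76496 in DEREG ischemia and 775 in DEREG sham (105-fold). Rsad2, the antiviral enzyme viperin, was 68.2-fold higher, Bst2, the virus tether tetherin, 63.6-fold and Oasl2 56.7-fold. Because these genes were higher together, their promoters are shown for the named members that held a match to an interferon response motif. The windows run from 250 bases before to 50 bases after the RefSeq start on GRCm38.p6, all 3 on the minus strand and read 5′ to 3′: Oas1a at chr5:120907476-120907775, Rsad2 at chr12:26456403-26456702 and Bst2 at chr8:71537423-71537722. Capitals mark matches to GAAA, any 2 bases and GAAA, or on the other strand TTTC, any 2 bases and TTTC, and overlapping matches run together.
Oas1a: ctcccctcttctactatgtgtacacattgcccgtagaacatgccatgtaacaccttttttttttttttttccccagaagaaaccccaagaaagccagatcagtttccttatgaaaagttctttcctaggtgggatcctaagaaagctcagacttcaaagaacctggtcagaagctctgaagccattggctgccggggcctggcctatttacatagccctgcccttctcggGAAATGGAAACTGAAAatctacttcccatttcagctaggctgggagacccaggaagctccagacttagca
Rsad2: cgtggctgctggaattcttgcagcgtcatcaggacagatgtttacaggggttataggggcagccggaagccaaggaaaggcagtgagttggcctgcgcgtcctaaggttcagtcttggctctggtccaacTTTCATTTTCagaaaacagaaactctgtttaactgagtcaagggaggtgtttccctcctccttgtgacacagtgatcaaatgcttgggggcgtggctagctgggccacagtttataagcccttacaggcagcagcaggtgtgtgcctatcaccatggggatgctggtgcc
Bst2: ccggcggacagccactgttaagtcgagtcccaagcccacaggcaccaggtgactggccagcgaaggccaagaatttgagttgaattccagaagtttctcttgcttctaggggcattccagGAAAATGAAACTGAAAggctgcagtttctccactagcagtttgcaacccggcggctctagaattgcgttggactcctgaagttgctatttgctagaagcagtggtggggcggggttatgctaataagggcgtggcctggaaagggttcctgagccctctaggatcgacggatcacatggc
The Oas1a matches begin 20 and 14 bases before the start, the Rsad2 match 120 bases before it, and the Bst2 matches 130 and 124 bases before it. Of 11 interferon-stimulated genes with a window in the table, 7 held the motif (63.6%), against 3.99% of 27025 genes with a window and 3.76% of 13531 such genes compared here. Irf7 and Oasl2 were among the 4 whose windows lack these letters. Among chemokine genes 2 of 15 windows held it, among MHC class I genes 1 of 7, among synapse genes 2 of 13, and among complement and cholesterol synthesis genes 0 of 7 and 0 of 10. A match is a string of letters in a window and does not show binding. The list was made of genes already known as interferon-stimulated, so its larger share may come from that choice and is no result of these arrays.

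Of 19 chemokine genes compared 18 were higher, with a median of 6.85, the highest of all lists. With normexp the median was 4.89, below the 5.24 of disease-associated phagocyte genes. Beside Ccl2 and Ccl8, Ccl5 had 25313 in DEREG ischemia and 142 in DEREG sham (189.6-fold), Cxcl10 13595 in DEREG ischemia and 94.3 in DEREG sham (153-fold) and the neutrophil chemokine gene Cxcl1 2786 in DEREG ischemia and 16.2 in DEREG sham (182-fold). The B cell chemokine gene Cxcl13 was at least 165-fold higher, and Ccl1, a ligand of Ccr8, at least 4.78-fold. Ccl20 was not well above background on either array. The exception on the list was Cx3cl1, fractalkine, a chemokine of neurons, which was at -2.71, with 6127 in DEREG ischemia and 42542 in DEREG sham, while the gene of its microglial receptor was higher. Of 8 chemokine receptor genes compared 7 were higher, with a median of 4.15: Cxcr3 39.4-fold, Cxcr4 at least 34.9-fold, Ccrl2 29.2-fold and Cxcr6 12.3-fold (log2 difference of 4.77 on its second probe). Ccr6 was at -0.31, under 2-fold, and Ccr8 was not well above background on either array.

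Inflammatory cytokine genes were mostly dim in sham tissue: 6 of the 12 compared gave only bounds, 9 were higher and 1 lower, with a median of 2.98. Il1rn, the interleukin-1 receptor antagonist, had 1227 in DEREG ischemia and was at least 119-fold higher. Il1b was at least 47.5-fold, Il6 at least 24.5-fold and Tnf 8.56-fold higher. Csf1 was 12.6-fold higher on the probe used and at 5.82 and 5.29 on its other 2 probes. Tgfb1 was 19.1-fold higher. Il33, an alarmin stored in glial nuclei, had 1839.9 in DEREG ischemia and 857 in DEREG sham (2.28-fold), whereas Il10 was not well above background on either array. In the interleukin-6 family and its STAT3 pathway, which drives astrocyte reactivity, 11 of 14 genes were higher and none lower, with a median of 3.11. Osm, oncostatin M of myeloid cells, had 1018 in DEREG ischemia and 13 in DEREG sham (82.9-fold), although its second probe gave a bound of 1.08, and its receptor gene Osmr was 17.7-fold higher. Stat3 had 17802 in DEREG ischemia and 2997 in DEREG sham (6.31-fold), its feedback inhibitor gene Socs3 was 25.4-fold, the list member Bcl3 47.8-fold and the cytokine gene Clcf1 at least 10.6-fold higher. Lif had 11.7 in DEREG ischemia and 3.82, not well above background, in DEREG sham, a bound of at least 1.13-fold.

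Reactive astrocyte genes were higher while many resting astrocyte genes were not. All 13 pan-reactive genes were higher, with a median of 4.62. Gfap, the intermediate filament of astrocytes, had 14815 in DEREG ischemia and 892 in DEREG sham (17.6-fold), and the filament gene Vim 17558 in DEREG ischemia and 563 in DEREG sham (33.1-fold). Lcn2, the secreted iron-binding protein lipocalin 2, had 39208 in DEREG ischemia and 559 in DEREG sham (74.5-fold), and Serpina3n, a protease inhibitor, 7159 in DEREG ischemia and 103 in DEREG sham (73.5-fold). Timp1 was 143-fold and Cd44 50.2-fold higher. Of 12 general astrocyte genes, by contrast, 4 were higher and none lower, with a median of 0.43: Gfap, the water channel gene Aqp4 (6.36-fold), Sox9 (2.97-fold) and the gap junction gene Gja1 (2.30-fold on the probe used, with 0.72 and 0.20 on the other 2). The glutamate transporter gene Slc1a3 was at 0.84 and Aldh1l1 at 0.82, both under 2-fold. The A1 list, named for the astrocyte state induced by lipopolysaccharide in mice, had 10 of 11 genes higher with a median of 4.61, and the A2 list, named for the state after ischemia, 11 of 12 with a median of 3.45. Of the 12 A2 values 6 are bounds, from genes kept only through DEREG ischemia, which could not come out lower. With normexp the medians were 4.29 (A1) and 2.26 (A2). A1 members named by the rule were Gbp2 (41.1-fold), Iigp1 (27.3-fold) and Srgn (24.4-fold) beside Serping1, Psmb8 and H2-D1, and A2 members were Tgm1 (at least 89.8-fold), Ptx3 (at least 60.1-fold), Emp1 (55.3-fold), Cd14 (33.5-fold), Cd109 (at least 26.9-fold) and Slc10a6 (at least 11.3-fold). Several of these genes are also expressed by myeloid cells and by interferon-exposed cells of any type, whose lists were higher in the same library, and the part of those cells was not tested.

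**Figure D2:**
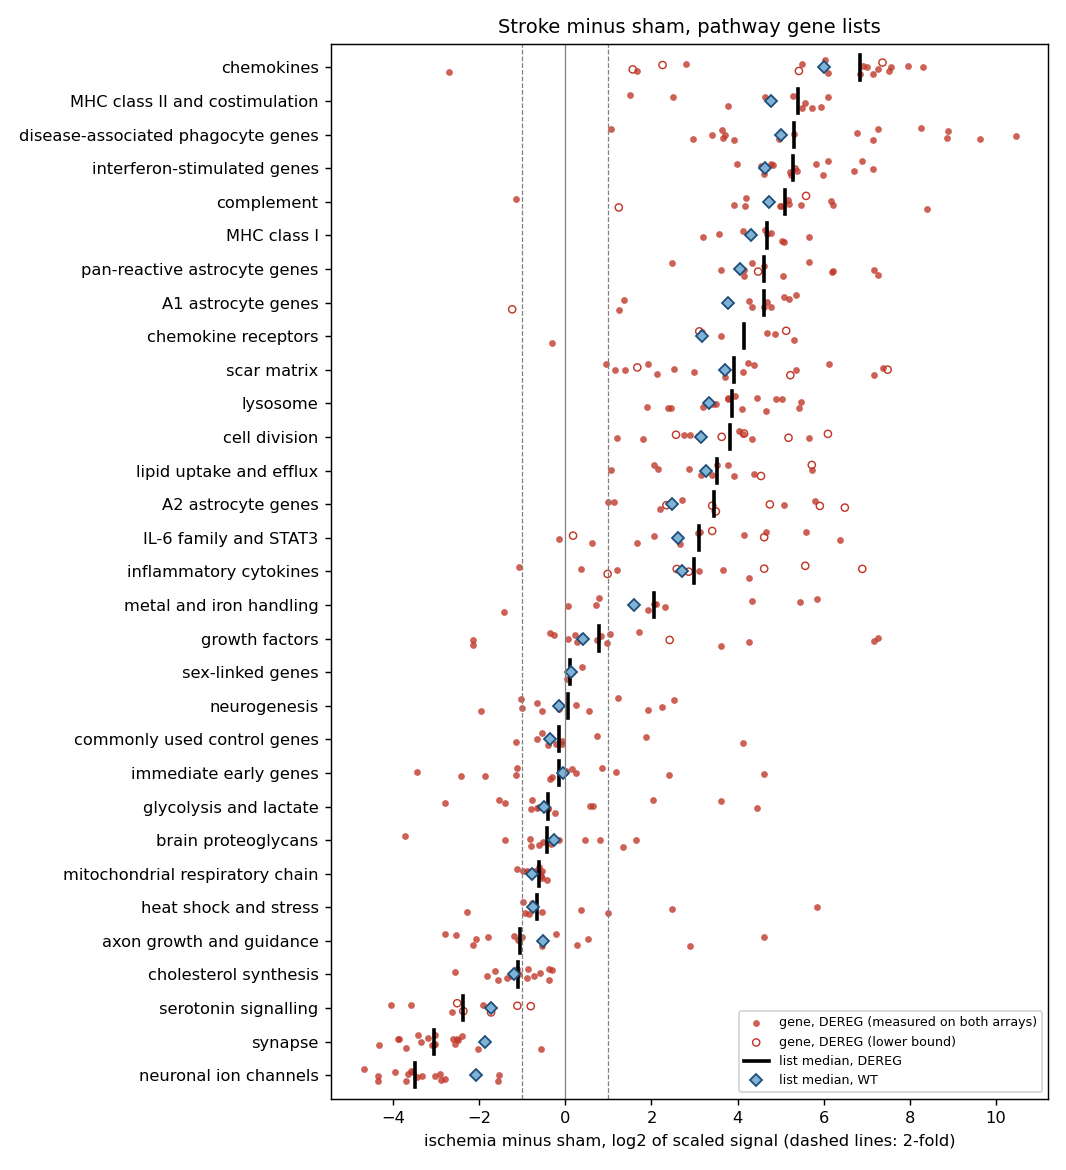
Difference DEREG ischemia minus DEREG sham (x axis, log2 of scaled signal) for each gene of 31 pathway lists. Filled points were measured on both arrays, open points are lower bounds, black bars are list medians in DEREG and blue diamonds list medians in WT, and dashed lines mark 2-fold. Chemokine genes have a median of 6.85 (4.89 with normexp) and neuronal ion channel genes one of -3.49, and in both rows the WT median lies nearer to 0.

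T cell genes were mostly higher in stroke tissue, and 4 of the 12 were not well above background in sham tissue. Of 12 T cell genes 10 were higher and 1 lower, with a median of 4.31 and a summed level of 20.3 in DEREG ischemia and 4.72 in DEREG sham. Cd3d, a chain of the T cell receptor complex, had 1398 in DEREG ischemia and 42.5 in DEREG sham (35.0-fold), Cd3g was at least 30.6-fold and Cd3e 3.19-fold higher (log2 difference of 0.83 on its second probe, under 2-fold). Cd8b1 had 1223 in DEREG ischemia and 36.2 in DEREG sham (35.9-fold), Cd8a was at least 16-fold, Cd2 at least 43.5-fold, Cd5 27.1-fold and Icos at least 24.8-fold higher. Cd4 was the member that was lower, 2.16-fold, with 445 in DEREG ischemia and 1021 in DEREG sham, and its second probe gave a bound of -2.47. Most cytotoxic genes were higher beside the Cd8 genes. Of 9 cytotoxic and natural killer genes compared 7 were higher and 1 lower, with a median of 2.98 (1.23 with normexp). Of these 9 values 6 are bounds. Gzma, granzyme A, had 2619 in DEREG ischemia and 26.9 in DEREG sham (104-fold). Nkg7 was at least 181-fold, Gzmb at least 61.0-fold, Klrd1 at least 29.1-fold and Ifng at least 7.88-fold higher. The natural killer receptor gene Klrb1c had probes of opposite direction (-2.09 and a bound of 2.56), and Ncr1, a defining gene of natural killer cells, was not well above background on either array. B and plasma cell genes were higher in 6 of 8 cases, with a median of 2.67, among them Cd79b (25.2-fold), the immunoglobulin joining chain gene Jchain (15.5-fold), Mzb1 (6.76-fold) and Ms4a1 (at least 6.07-fold). Il2 was not well above background on either array.

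Treg-associated genes gave a partial picture. Foxp3 was not well above background on either array, with 9.78 in DEREG ischemia and 2.38 in DEREG sham, and neither were Ctla4, Areg or Ccr8. Of the 8 list members that could be compared, 5 were higher, with a median of 1.89: Tnfrsf18 (GITR) at least 27.6-fold, Il1rl1, the receptor for the Il33 product, at least 11.4-fold, Il2ra at least 9.90-fold, Lrrc32 5.45-fold and Klrg1 at least 2.51-fold. Ikzf2 (Helios) was at 0.72. Of the 8 values 5 are bounds, and with normexp the list median was 0.93, under 2-fold. These receptors are also carried by other activated lymphocytes and by some myeloid or endothelial cells, and the arrays give no measure of Treg in either DEREG library.

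Neutrophil and dendritic cell genes followed the other leukocytes. Of 8 neutrophil genes compared 5 were higher: the calprotectin genes S100a9 and S100a8 had 22263 in DEREG ischemia and 324 in DEREG sham (73.1-fold) and 5636 in DEREG ischemia and 86.0 in DEREG sham (69.6-fold), Cxcr2 was at least 40.6-fold, Mmp8 35.8-fold and Retnlg 18.7-fold higher. Mpo, the granule enzyme myeloperoxidase made by precursors in the marrow, was at 0.81. Of 7 dendritic cell genes 5 were higher, led by Itgax, the migratory receptor gene Ccr7 (32.1-fold) and Clec10a (12.5-fold), with Cd209a 6.35-fold and Clec9a at least 3.34-fold higher and Flt3 at -0.55. Red blood cell genes were higher too, Hba-a1 4.55-fold and Hbb-bt 4.53-fold, with a summed level of 16.3 in DEREG ischemia and 3.59 in DEREG sham, and the part of blood in the leukocyte genes was not tested.

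Genes of cell division were higher throughout. All 14 cell division genes were higher, 5 of them as bounds, with a median of 3.83. Mki67, the proliferation antigen, had 1642 in DEREG ischemia and 34.5 in DEREG sham (50.6-fold), topoisomerase gene Top2a was at least 68.4-fold, Ccnb1 at least 36.3-fold, Birc5 20.3-fold, Cdk1 at least 17.7-fold and Kif20a 17.4-fold higher. Which cells divided cannot be read from tissue RNA.

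Fibroblast and scar genes formed another block of higher genes, while vessel genes differed less. Of 18 scar matrix genes 17 were higher and none lower, with a median of 3.92. Col3a1 had 12199 in DEREG ischemia and 78.1 in DEREG sham (166-fold), Col1a1 11266 in DEREG ischemia and 172 in DEREG sham (69.7-fold) and Col1a2 54609.7 in DEREG ischemia and 1421 in DEREG sham (40.8-fold), the 3 chains of the fibrillar collagens I and III. Thbs1, thrombospondin 1, was at least 179-fold and the collagen cross-linking enzyme gene Lox at least 37.3-fold higher. The small proteoglycan genes of fibroblasts, Lum and Dcn, were 70.8-fold and 39.7-fold higher, and of 10 meningeal fibroblast genes 9 were higher with a median of 4.46. Pericyte and smooth muscle genes had 7 of 10 higher at a median of 1.19, led by Anpep (29.4-fold), which is also a gene of myeloid cells and fibroblasts, and Pdgfrb (5.90-fold), with Tagln 3.71-fold and the pericyte channel genes Kcnj8 and Abcc9 2.30-fold and 2.26-fold higher. Of 15 endothelial genes 6 were higher, at a median of 0.67: Emcn 4.60-fold, Vwf 4.12-fold, Cdh5 4.04-fold, Ly6c1 2.81-fold, Kdr 2.51-fold and Tie1 2.50-fold. Among the proteoglycans of the neuronal matrix, 2 of 12 were higher and 2 lower, with a median of -0.43, beside 22.4% higher and 22.1% lower among all genes. Hapln4 and Hapln1, link proteins of the nets around neurons, were 13.2-fold and 2.64-fold lower, Vcan, versican, was 3.10-fold higher, and Bcan, brevican, was at -0.81.

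**Figure D3:**
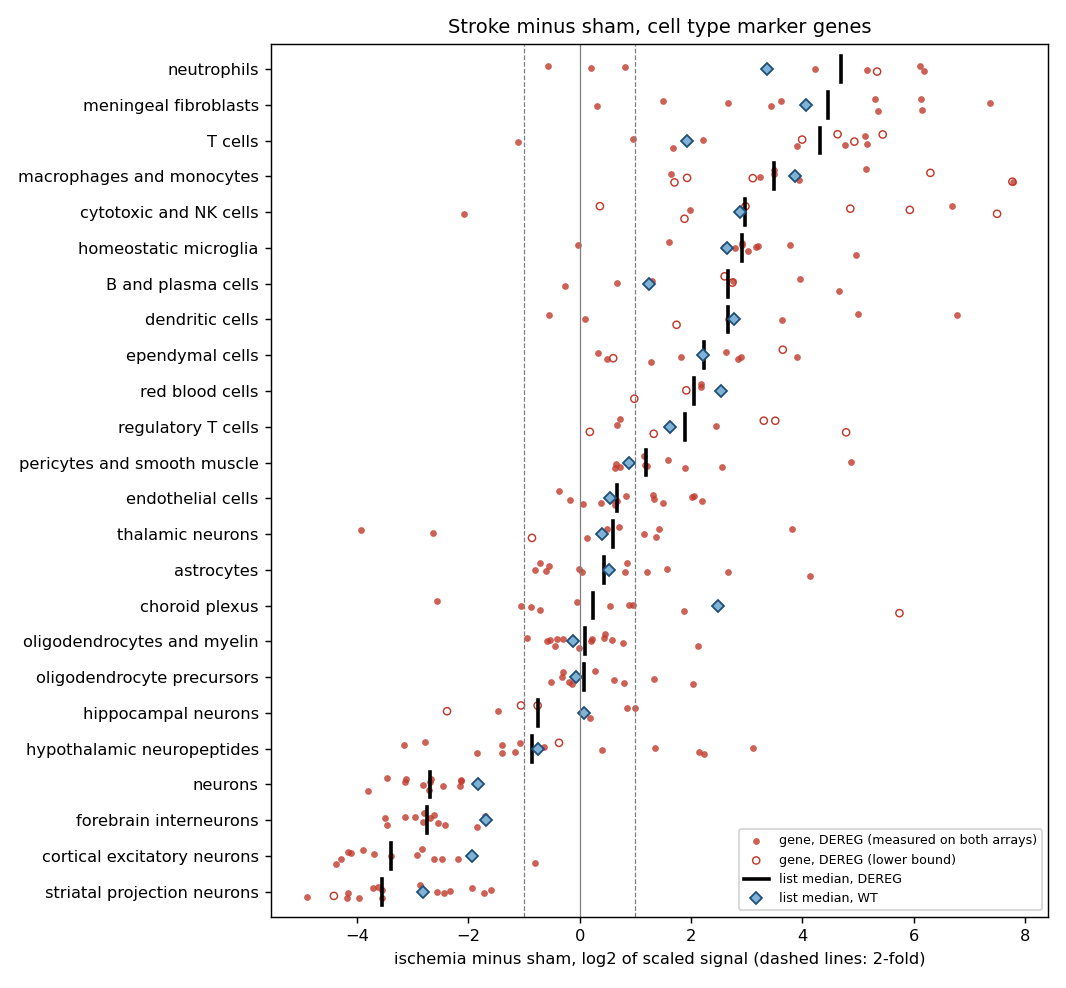
Difference DEREG ischemia minus DEREG sham (x axis, log2 of scaled signal) for each gene of 24 cell type marker lists, with symbols as in the plot of pathway lists. Leukocyte and fibroblast lists lie right of 0, myelin genes near 0 (median 0.09) and forebrain neuron lists left of 0, and the DEREG and WT medians lie far apart for T cell genes (4.31 and 1.92) and, the other way, for choroid plexus genes (0.24 and 2.49).

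Neuronal genes were lower as a block. All 12 general neuron genes were at least 2-fold lower, with a median of -2.70 and a summed level of 90.2 in DEREG ischemia and 633 in DEREG sham. Rbfox3, which encodes the nuclear marker NeuN, had 3345 in DEREG ischemia and 31422 in DEREG sham (8.84-fold lower), and Syt1, the calcium sensor of synaptic vesicles, 6149 in DEREG ischemia and 56984 in DEREG sham (8.72-fold lower). The neurofilament genes Nefm and Nefl were 13.9-fold and 11.1-fold lower, Eno2 7.02-fold and Syn1 6.49-fold. These genes stayed well above background in stroke tissue.

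Genes of cortical and striatal projection neurons had lower medians than the general genes, although with normexp background correction the cortical median was -2.48 beside -2.70 for general neuron genes. Of 13 cortical excitatory genes 12 were lower, with a median of -3.38. Slc17a7, the vesicular glutamate transporter of cortex, had 141 in DEREG ischemia and 2926 in DEREG sham (19.5-fold lower) and Tbr1, a transcription factor of deep layers, 269 in DEREG ischemia and 5919.7 in DEREG sham (20.7-fold). Lamp5 was 17.9-fold, Neurod6 17.3-fold and Bcl11b 14.8-fold lower. All 16 striatal genes were lower, with a median of -3.55. Drd1, the D1 dopamine receptor of medium spiny neurons, had 382 in DEREG ischemia and 6321 in DEREG sham (15.6-fold lower). Drd2 was at least 21.4-fold lower and at background in DEREG ischemia, Pde10a was 18.1-fold, Tac1 17.9-fold and Rgs9 13.2-fold lower. The direct-pathway genes Drd1 and Tac1 and the indirect-pathway gene Drd2 were thus lower together. Forebrain interneuron genes were lower in 12 of 12 cases, with a median of -2.75: Cck 11.3-fold, Reln 11-fold, Gad1 8.76-fold, Slc32a1 7.75-fold, Gad2 7.04-fold and Vip 6.99-fold. The interneuron list shares GABA synthesis genes with striatal projection neurons, which are GABAergic too.

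Genes of other neuron groups followed this block only in part. The list medians were 0.59 for thalamic, -0.85 for hypothalamic and -0.76 for hippocampal genes (0.55, -0.32 and -0.20 with normexp). Of 10 thalamic genes 4 were higher and 2 lower: Slc17a6, the glutamate transporter of thalamus and hypothalamus, was 15.2-fold lower (24.8 in DEREG ischemia and 401 in DEREG sham), and Ptpn3 6.21-fold lower, while Prkcd was 14.1-fold higher (3141 in DEREG ischemia and 237 in DEREG sham). Prkcd is also expressed by myeloid cells, whose genes were higher in the same library. Rgs16, Synpo2 and Plekhg1 were 2.67-fold, 2.60-fold and 2.21-fold higher. Among 14 hypothalamic neuropeptide genes, 4 were higher and 7 lower. Avp, vasopressin, had 2349 in DEREG ischemia and 288 in DEREG sham (8.66-fold higher), Oxt, oxytocin, was 4.41-fold and Gal, galanin, 4.69-fold higher, whereas Cartpt, Crh and Nts, which cortex, striatum or amygdala also express, were 8.93-fold, 6.89-fold and 3.58-fold lower. Of 7 hippocampal genes 3 were lower and none higher (Fibcd1 at least 5.22-fold, Wfs1 2.78-fold and Tdo2 at least 2.08-fold), and 3 of the 7 values are bounds.

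Genes of synapses, ion channels and serotonin receptors were lower in nearly every case. Of 18 synapse genes 17 were lower, with a median of -3.04. The vesicle protein gene Sv2b had 244 in DEREG ischemia and 5228 in DEREG sham (20.2-fold lower), the fusion protein gene Stx1a was 14.6-fold and Syn2 10.7-fold lower, the GABA receptor gene Gabrb2 14.7-fold, and the NMDA receptor gene Grin1 10.1-fold. All 16 ion channel genes were lower, with a median of -3.49: Kcnip2 25.6-fold, Scn4b 20.4-fold, Kcna4 20.3-fold, Cacng3 15.5-fold, Kcnh3 13-fold and Cacna2d3 12.5-fold. Serotonin receptor genes were lower in 8 of 9 comparisons, with a median of -2.37. Of these 9 values 5 are bounds, and with normexp the median was -0.83, under 2-fold. Htr2c had 80.7 in DEREG ischemia and 1416 in DEREG sham (16.5-fold lower), Htr2a 32.3 in DEREG ischemia and 409 in DEREG sham (11.9-fold) and Htr7 111 in DEREG ischemia and 444 in DEREG sham (3.75-fold), and the serotonin transporter and tryptophan hydroxylase genes, which serotonin neurons of the brainstem express, were not well above background on either array.

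The 15 genes with the lowest differences were led by genes enriched in cortical and striatal neurons. Kcnv1, a silent potassium channel subunit, had 13.9 in DEREG ischemia and 959 in DEREG sham, 65.1-fold lower, the only gene past 64-fold in this direction, although its second probe reached background and gave a bound of -2.15. With normexp its difference was 12.1-fold. Mas1, the angiotensin-(1-7) receptor, was 37.0-fold lower, the vesicular zinc transporter gene Slc30a3 32.2-fold, Nrn1, neuritin, 30.5-fold and the gastrin and cholecystokinin receptor gene Cckbr 29.1-fold. Ido1, indoleamine 2,3-dioxygenase, an enzyme that interferon induces in immune cells, was 30.2-fold lower, with 49.1 in DEREG ischemia and 1573 in DEREG sham, in a library where other interferon-induced genes were higher. Rgs4, Acvr1c, Mlip, Nwd2, Lrrc10b and Lmo3 were between 23.2-fold (Lmo3) and 27.4-fold (Acvr1c) lower, with Hs3st2 25.6-fold lower on the probe used and at bounds of -3.07 and 0.88 on its other 2 probes. Among the largest bounds in this direction were at least 22.5-fold for the neuropeptide gene Adcyap1, at least 20.6-fold for Gpr12, at least 20.4-fold for Kcns2 and at least 18.6-fold for Arr3.

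Oligodendrocyte genes stayed nearly level beside the neuronal differences. Of 14 myelin genes 1 was higher and none lower, with a median of 0.09. Mbp, myelin basic protein, had 32001 in DEREG ischemia and 24762 in DEREG sham, a difference of 0.46. The gene that was higher was Trf, transferrin, with 92419.9 in DEREG ischemia and 22556 in DEREG sham (4.35-fold). Among 10 precursor genes Pdgfra and Cspg4 were 4.09-fold and 2.52-fold higher, both of which fibroblasts and pericytes also express, while Gpr17, Bcas1 and Neu4 were at -0.52, 0.80 and -0.32, and the list median was 0.07.

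Stress, metal and energy genes split by gene. Among all genes 22.4% were higher and 22.1% lower, and counts near these shares are no result about a list. Hmox1, heme oxygenase 1, had 11602 in DEREG ischemia and 215 in DEREG sham (57.3-fold higher), the phagosomal metal transporter gene Slc11a1 was 43.6-fold and ceruloplasmin (Cp) 20.0-fold higher (log2 difference of 3.09 on its second probe), and 7 of 11 metal and iron genes were higher with a median of 2.05. Among them Ftl1, ferritin light chain, was 4.16-fold (log2 difference of 3.32 on its second probe) and the iron exporter gene Slc40a1 4.97-fold higher. Of 10 heat shock genes 3 were higher and 1 lower: the small heat shock protein gene Hspb1, which is on the reactive astrocyte list too, was 5.53-fold higher and Hsph1 4.86-fold lower. Immediate early genes were led by Atf3 (24.4-fold higher), Npas4 (10.9-fold lower) and Arc (5.34-fold lower), with 3 of 14 higher and 5 lower. The activity-dependent neuronal genes Npas4 and Arc and the injury gene Atf3 thus went opposite ways. Glycolysis genes had 3 of 15 higher and 3 lower, near the shares of all genes: Hk2, the inducible hexokinase, was 21.8-fold and the lactate exporter gene Slc16a3 12.3-fold higher, and the neuronal glucose transporter gene Slc2a3 6.99-fold lower. Hk1, also counted as lower, was at -1.40 on the probe used and at 0.79 on its second probe. Respiratory chain genes were shifted a little, with 1 of 12 past 2-fold (Ndufs1, 2.18-fold lower) and a median of -0.62.

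Growth factor and regeneration genes were mixed, beside 22.4% higher and 22.1% lower among all genes. Gdf15, a stress cytokine, had 2256 in DEREG ischemia and 16.6 in DEREG sham (144-fold), Igf2 was 12.2-fold and Fgf2 at least 5.36-fold higher, and Bdnf, a neurotrophin of cortical neurons, was 4.43-fold lower. Hbegf was at 0.96 and Areg was not well above background on either array, so that 7 of 18 growth factor genes compared were higher and 2 lower. Among neurogenesis genes 4 of 12 were higher and 3 lower: Igfbpl1 5.75-fold, Cd24a 4.77-fold, Nes, nestin, 3.78-fold and Sox4 2.35-fold higher, Dcx, doublecortin, 3.90-fold lower on the probe used and at -0.92 on the second. Axon genes had 2 of 14 higher and 8 lower, with a median of -1.05. The injury-induced gene Sprr1a was 7.46-fold higher, and the growth cone gene Gap43 (4.39-fold) and the guidance receptor gene Epha4 (6.89-fold) were lower.

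Commonly used control genes did not all stay level, which bears on the scale. Of 10, 2 were higher (B2m and Rplp0, 3.64-fold) and 1 lower (Ywhaz, 2.20-fold), with Actb at 0.74, Hprt at -0.66, Sdha at -0.55 and a list median of -0.15. The Y-linked genes Eif2s3y, Ddx3y, Uty and Kdm5d were measured on all 4 tissue arrays, with differences of 0.04 to 0.39 in DEREG brain, and Xist was not well above background on any, so the 4 libraries were alike in these genes.

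The question of how far the stroke difference in DEREG brain is like that in WT brain was addressed with the WT pair, which shares no array with the DEREG pair. Most genes that differed in WT brain differed the same way in DEREG brain, with larger sizes in DEREG brain for most of them. Across 15120 genes measured on all 4 arrays Pearson's r between the differences was 0.97 and Spearman's rho 0.96. Genes are not independent replicates, and all 4 arrays lie on 1 slide with 1 scan time. Of the 2953 genes at least 2-fold higher in DEREG ischemia 2325 (78.7%) were also higher in WT ischemia, and these were 94.9% of the 2449 higher in WT. Of the 3433 that were lower in DEREG 2656 (77.4%) were also lower in WT, 95.4% of 2785. In the WT comparison of 16973 genes 18.8% were higher and 18.4% lower. Among genes higher in both, 83.7% had the larger difference in DEREG, by a median of 0.34, and among genes lower in both 93.7%, by a median of -0.60 (DEREG minus WT).

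The genotypes lay farther apart after stroke than after sham surgery. DEREG ischemia and WT ischemia were at least 2-fold apart for 915 genes with an SD of 0.48, whereas DEREG sham and WT sham were so for 55 genes with the SD of 0.20 given above. The DEREG stroke difference exceeded the WT difference by 2-fold for 137 of the 15120 genes (0.906%) and lay 2-fold below it for 788 (5.21%). With 1 array in each of 4 groups this difference of differences has no error and no test, and lesion size, which the sources used here do not give, cannot be told apart from genotype.

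Many forebrain neuron genes were among the 788. Of the cortical excitatory genes 11 of 13 lay 2-fold below WT (8 of 13 with normexp), with list medians of -3.38 in DEREG and -1.93 in WT. Slc17a7 had 141 in DEREG ischemia and 2926 in DEREG sham, against 503 in WT ischemia and 2585 in WT sham. The sham values of the genotypes were close and the stroke values were not. Of the synapse genes 13 of 18 and of the ion channel genes 11 of 16 lay 2-fold below WT (7 of 16 with normexp), as did 7 of 12 general neuron genes and 5 of 12 interneuron genes (2 of 12 with normexp). Of striatal genes 2 of 15 did, none with normexp, with medians of -3.55 in DEREG and -2.81 in WT. Kcnv1 had the lowest value among neuronal genes, -2.98, with -6.03 in DEREG and -3.05 in WT. Myelin genes had a median of 0.25 for the same quantity, and no myelin gene reached 2-fold.

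T cell and chemokine genes were among the 137 with the larger DEREG difference. The 10 highest values were led by Avp, which had 2349 in DEREG ischemia and 288 in DEREG sham, against 269 in WT ischemia and 482 in WT sham, so that only the DEREG stroke library was high. Next came Il2rb, a receptor chain for interleukins 2 and 15 (3.02 in DEREG and 0.47 in WT), the chemokine genes Ccl24 (4.20 in DEREG and 1.71 in WT) and Ccl8 (7.96 in DEREG and 5.48 in WT), Ltb4r1, a leukotriene B4 receptor (3.40 in DEREG and 1.02 in WT), and Cxcr6 (3.62 in DEREG and 1.39 in WT). Tbc1d10c, Mctp2 and Sprr2g were also among the 10. Of 7 T cell genes measured on all 4 arrays 4 exceeded WT by 2-fold, with a median of 1.05 for DEREG minus WT. With the median over a gene's probes 3 of 6 did, with a median of 0.55. Cd3d had 1398 in DEREG ischemia and 42.5 in DEREG sham, against 201 in WT ischemia and 16.8 in WT sham. Cd8b1, which was not well above background in WT sham, had 1223 in DEREG ischemia and 36.2 in DEREG sham, against 118 in WT ischemia. Gzma had 2619 in DEREG ischemia and 387 in WT ischemia. The T cell list had a summed level of 20.3 in DEREG ischemia and 4.72 in DEREG sham, against 6.87 in WT ischemia and 4.80 in WT sham. These sums include Cd4, which was bright in sham tissue and lower after stroke in both genotypes. It had 445 in DEREG ischemia and 1021 in DEREG sham, against 404 in WT ischemia and 1160 in WT sham. By gene, 7 of 12 T cell genes were higher in WT and 1 lower, with a median of 1.92, beside 4.31 in DEREG. Foxp3 was not well above background on any of the 4 arrays.

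Inflammatory lists differed in how many members had the larger difference in DEREG brain. All 15 interferon-stimulated genes measured on 4 arrays had a larger difference in DEREG, with list medians of 5.29 in DEREG and 4.63 in WT, and so did 16 of 16 lysosomal, 9 of 9 MHC class I, 9 of 9 MHC class II, 12 of 12 microglia, 10 of 10 interleukin-6 family and 9 of 9 cell division genes, beside 8455 of the 15120 genes overall. With quantile normalization 13 of 16 lysosomal genes, 8 of 9 MHC class I genes and 11 of 12 microglia genes did. The count was 8 of 11 for complement, 8 of 12 for chemokine, 4 of 6 for inflammatory cytokine, 3 of 7 for macrophage and 1 of 5 for neutrophil genes. Among all genes higher in both genotypes, as given above, 83.7% had the larger difference in DEREG. Few members passed 2-fold: 1 interferon-stimulated gene and none of the lysosomal or microglia genes. Gfap was at 4.14 in DEREG and 3.83 in WT, and Lcn2 had 39208 in DEREG ischemia and 559 in DEREG sham, against 14824 in WT ischemia and 105 in WT sham, so its level was higher in the DEREG library after stroke and also after sham surgery. Macrophage genes (-0.06), scar matrix genes (-0.04) and general astrocyte genes (-0.03) had medians near 0 for DEREG minus WT.

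**Figure D4:**
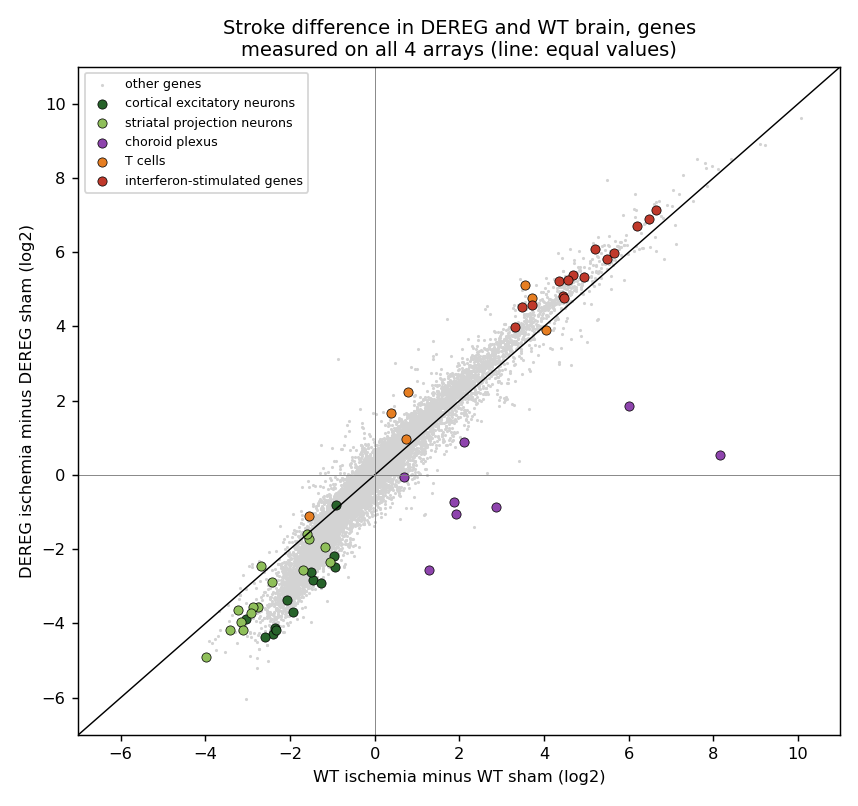
Stroke difference in WT brain (x axis, log2) against that in DEREG brain (y axis, log2) for 15120 genes measured on all 4 arrays, 1 point per gene, with 5 lists in colour and a line of equal values. Of 13 cortical neuron genes 12 lie below the line, and 7 of 8 choroid plexus genes lie at least 2-fold below it.

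Choroid plexus genes formed a separate group. Their list median was 0.24 in DEREG and 2.49 in WT, and 7 of the 8 members measured on 4 arrays lay 2-fold below WT. Ttr, transthyretin, the main secreted protein of choroid plexus, had 491 in DEREG ischemia and 359.9 in DEREG sham, against 26647 in WT ischemia and 91.7 in WT sham. Folr1, a folate receptor, had 165 in DEREG ischemia and 47.8 in DEREG sham, against 1565 in WT ischemia and 23.8 in WT sham. The WT stroke library was thus the high library for both genes. The summed level of the list was 23.5 in DEREG ischemia and 22.8 in DEREG sham, against 107.3 in WT ischemia and 23.2 in WT sham, with Aqp1 not well above background in either sham library. Sostdc1, Kcne2 and Prlr, further genes of this epithelium, were at -3.73, -3.05 and -2.58 for DEREG minus WT, and Cytl1 was at -2.59. Ependymal genes, which mark the lining of the same ventricles, did not share this pattern, with medians of 2.23 in DEREG and 2.22 in WT and 7 of 10 higher in DEREG, among them Cfap126 (14.9-fold), Ccdc153 (7.17-fold) and Rarres2 (7.49-fold). How much choroid plexus each slice held is not stated, and its part in the other differences was not tested.

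Probes with no gene symbol in the naming table differed too. Over all 39226 kept probes 19.1% were higher in DEREG ischemia by 2-fold or more and 21.2% lower. Of the 13682 unnamed probes among them 2135 (15.6%) were higher and 2695 (19.7%) lower.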

How the data were processed

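Brain slice RNA of 4 groups (DEREG ischemia, DEREG sham, WT ischemia and WT sham, 1 array each, day 14) was labelled with Cy3 by a low-input amplification kit, per the labels' protocols. The deposited scanner files hold intensity values, the processed signals of Agilent's scanner software (Feature Extraction version 10.7.1.1 by the submitters' processing notes), which are background-subtracted spots on a linear scale with no normalization across arrays, per the file headers. In the series table that the authors deposited the signal is linear as well, and on each tissue array it equalled the processed intensity over a constant near that array's upper quartile, within 0.1% for at least 99.95% of probes. It was used as an alternative.

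Spots of a probe were averaged, outlier spots left out, and log2 values scaled by the 75th percentile over 56605 probes. Between 62.0% and 65.1% of probes were well above background, no spot was saturated, and the number of arrays limits the precision. Names came from RefSeq accessions (GRCm38.p6): 32994 probes had 1 symbol and 23611 stayed unnamed. The probe with the highest mean stood for a gene. Of 94 other probes of named genes measured on both arrays, 1 went the opposite way at 2-fold and 13 lay over 2-fold apart.

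With 1 array per group there is no test. List counts are to be read against the shares over all genes, 22.4% higher and 22.1% lower, which are not repeated beside every list. Named genes were the 15 highest and 15 lowest measured differences, 6 bounds each way, a fixed set, up to 6 members of each list with the largest size, and the 10 highest and 10 lowest DEREG minus WT values. A few genes that the rule names are left out here. Apoe, Tyrobp, C1qa, C1qb, C1qc, Cx3cl1, Mbp, Ncr1, Ctla4, Asb5 and 6720483E21Rik were named after their values were seen. The members and the 55 gene lists were chosen with earlier results of these data known. Counting was tested on simulated data. Alternatives were normexp (limma 3.58.1, R 4.3.3, offset 50, on the median signal, since the mean signal was not used here), quantile normalization, 2 other scaling points, 2 other filters, the median over probes and the series table. Python 3.11.15, numpy 2.4.6 and pandas 2.3.3 were used.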

Additional observations from a re-analysis of the deposited data

Results flagged for a closer look

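For 5 genes the stroke difference went opposite ways at 2-fold or more in the genotypes. The difference between the genotypes was not tested, since each group has 1 array. Clic6, a chloride channel gene of choroid plexus, was at -2.57 in DEREG and 1.29 in WT, -3.86 for DEREG minus WT. Cox8b, a cytochrome oxidase subunit gene known from muscle, was at -1.39 in DEREG and 2.33 in WT, -3.72 for DEREG minus WT. Kl, klotho, was at -1.05 in DEREG and 1.92 in WT, a value of -2.97. The unnamed locus 6720483E21Rik (-1.09 in DEREG and 1.16 in WT) and the gene Asb5 (-1.06 in DEREG and 1.18 in WT) gave -2.24 each. In all 5 the WT ischemia library was higher than the other 3 libraries. No gene went the other way, higher in DEREG and lower in WT.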

How the results depend on the processing

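The counts of genes at 2-fold stayed within 1.5 times of 3837 higher and 3799 lower under every alternative, with 2867 higher and 2869 lower with normexp and 4466 higher and 4397 lower with no filter on dim probes. The count above WT moved to 80 with normexp, 206 with the median as scaling point and 1083 with no filter, in place of 137. The count below WT moved to 411 with normexp and 1757 with no filter, in place of 788. No filter admits probes at background, and shifted the median of all genes by 0.10. Of 323 named genes at 2-fold, 302 remained so with normexp and 315 with the median over a gene's probes. Leaving out bounds kept 266 of them with unchanged values, so that filter could not alter their calls. With the median over probes Itgam was at 0.88 and Klrb1c at 2.56, each of the other sign because their probes disagree. Sizes depended on the background correction. With normexp 275 of 368 named differences and 37 of 55 list medians moved by more than a margin set from the error between spots. T cell genes were then at 2.37 in place of 4.31 and cell division genes at 2.19 in place of 3.83. Chemokine genes were at 4.89 in place of 6.85. Medians that fell under 2-fold with normexp were those of Treg-associated genes (0.93 in place of 1.89), serotonin genes (-0.83 in place of -2.37) and axon genes (-0.85 in place of -1.05). Of the list medians, 4 changed sign. Among genes above background on every array compared, the hippocampal median was 0.51 in place of -0.76, which rested on 3 bounds of 7 values, and the choroid plexus median -0.052 in place of 0.24. The median of oligodendrocyte precursor genes was -0.029 in place of 0.07 with the median over probes, and that of neurogenesis genes -0.00017 in place of 0.05 with the median as scaling point. No paired analysis was possible because each group has 1 array. Precision is limited by 1 array per group and, for dim genes, by signal near background.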
